A study of Mus musculus with 12 samples.

Results

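The genes described are Zfp36, Zfp36l1, Zfp36l2, Ier2, Ier3, Ier5 and Btg1, 7 of the 49585 genes listed in each library, chosen by name. Symbols came from the Ensembl identifiers of the count tables. RNA of whole mouse pancreas was sequenced in 12 libraries from 12 animals of 2 to 4 months of age. C57Bl6 control mice, called wild type here, and congenic Atf3-/- mice, called labelled knockout, received 4 injections of saline or of 50 ug/kg cerulein, an analogue of the gut hormone cholecystokinin, and the pancreas was taken 4 h into treatment. Each of the 4 groups holds 3 animals, named here by their label codes. The wild-type animals were W1, K5 and R3 (saline) and O1, O3 and N3 (cerulein), and the labelled knockouts were S1, K4 and Q1 (saline) and C2, C3 and L4 (cerulein). Which part of Atf3 is deleted and in which cells is not given in the sources used here.

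Zfp36 (tristetraprolin), Zfp36l1 and Zfp36l2 form a family of zinc-finger proteins that bind AU-rich elements in the 3′ UTRs of short-lived mRNAs and recruit the CCR4-NOT deadenylase, which removes the poly(A) tail and starts decay. Btg1 is an antiproliferative protein of the BTG/TOB family that binds the deadenylase subunits of the same complex. Ier2, Ier3 and Ier5 are named for immediate early response, fast induction by growth factors or stress, and are not decay factors themselves. Ier2 is a small nuclear protein, its relative Ier5 activates the heat shock factor Hsf1, and Ier3 (IEX-1) acts on cell survival and on ERK signalling. Repeated cerulein at a high dose overstimulates the acinar cells, which make the digestive enzymes, and is a standard model of mild pancreatitis.

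The mRNAs of several members carry the kind of element that the Zfp36 proteins read. In the GENCODE M21 transcript with the longest coding sequence, the 3′ UTR of Zfp36 (774 bases) held 3 copies of the heptamer TATTTAT, that of Zfp36l1 (1835 bases) 3, that of Zfp36l2 (1822 bases) 3 and that of Ier3 (613 bases) 4, with overlapping copies counted. No TATTTAT was found in the 3′ UTRs of Ier2 (755 bases), Ier5 (2143 bases) and Btg1 (4166 bases), although the shorter ATTTA was found 2 times in Ier5 and 11 times in Btg1 and was not found in Ier2. Among 3′ UTRs of like length (the shorter at least 0.8 times the longer), at least as many heptamers as in Zfp36 were found in 0.909%, as many as in Zfp36l1 in 3.38%, as many as in Zfp36l2 in 3.44% and as many as in Ier3 in 0.442%. At least 1 heptamer was found in 27.9% of all 3′ UTRs searched. At like length, at least as many ATTTA as in Ier5 were found in 79.1% and as many as in Btg1 in 21.4%. For the length of Ier2, 64.2% held an ATTTA. The longer nonamer TTATTTATT, which contains the heptamer, was found once in each Zfp36 family 3′ UTR and in 7.24% of the 3′ UTRs of 12949 genes tested. Among 3′ UTRs of like length it was found in 4.89% for Zfp36, 8.97% for Zfp36l1 and 8.84% for Zfp36l2. A match describes the letters and not a bound site. The sites below are shown in transcript orientation because they are the family's own kind of target, with the nonamer of Zfp36 and Zfp36l1 and the 4 heptamers of Ier3 in capitals.
Zfp36 chr7:28376953-28376977, minus strand: tgacgactTTATTTATTgtattaag
Zfp36l1 chr12:80108169-80108193, minus strand: ctgttggaTTATTTATTttagaaat
Ier3 chr17:35822483-35822507, plus strand: tctaattaaTATTTATgtatttatg
Ier3 chr17:35822491-35822515, plus strand: atatttatgTATTTATgtatatcct
Ier3 chr17:35822533-35822557, plus strand: tgtatgtaaTATTTATtctaactta
Ier3 chr17:35822588-35822612, plus strand: taacacagaTATTTATtacgattta
The coordinates are GRCm38 and all 6 sites lie in the 3′ UTR of the named gene. The printed windows of the first and second Ier3 sites overlap. The heptamers of Ier3 start at bases 182, 190, 232 and 287 after the stop codon.

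The promoters are shown because all 7 members were higher in the wild-type cerulein than in the wild-type saline libraries, as were 27.5% of all genes. RefSeq promoters (GRCm38.p6) of 300 bases, 250 before and 50 after the start, were at hand for Zfp36, Zfp36l1, Ier3, Ier5 and Btg1, 5 of the 7 members. They were searched on both strands for TGACGTCA (the cyclic AMP element), TGANTCA (the AP-1 element), GCGTGGGCG (the Egr element), TATAAA and the CArG box of serum response factor. Of 32817 promoters, 1.79% held TGACGTCA, 7.81% TGANTCA, 0.612% GCGTGGGCG, 13.6% TATAAA and 1.63% a CArG box. Zfp36 held a CArG box, Zfp36l1 the AP-1 element and TATAAA, and Btg1 TATAAA. No exact match was found in the windows of Ier3 and Ier5, although the stretches of both hold tataag, which differs from TATAAA in its last base. Matches are in capitals in the stretches before the RefSeq start that follow. The Zfp36 stretch, its CArG box included, lies inside the longer GENCODE model of the gene, in which it is exonic, and only 30 bases of it are shown.
Zfp36 chr7:28379267-28379296, minus strand: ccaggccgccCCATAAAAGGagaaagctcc
Zfp36l1 chr12:80113014-80113143, minus strand: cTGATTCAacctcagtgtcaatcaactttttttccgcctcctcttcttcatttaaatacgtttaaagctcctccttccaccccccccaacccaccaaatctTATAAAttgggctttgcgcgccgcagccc
Ier3 chr17:35821583-35821683, plus strand: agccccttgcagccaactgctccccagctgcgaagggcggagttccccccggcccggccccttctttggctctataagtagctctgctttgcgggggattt
Ier5 chr1:155099637-155099766, minus strand: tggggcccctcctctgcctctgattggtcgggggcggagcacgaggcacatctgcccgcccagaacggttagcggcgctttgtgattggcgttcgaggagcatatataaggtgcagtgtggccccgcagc
Btg1 chr10:96616871-96617000, plus strand: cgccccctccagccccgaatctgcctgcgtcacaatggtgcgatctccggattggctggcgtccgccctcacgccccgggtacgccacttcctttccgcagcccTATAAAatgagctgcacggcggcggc
No motif of the 5 was present in all 5 windows.

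The 12 libraries held 18292997 to 32158629 counts, and no replicate pair was identical. Atf3, the gene named in the genotype, was not lower in the labelled knockout. Its level was 1.13 to 5.28 CPM (counts per 1e6 of the TMM-scaled library size, edgeR's scaling for composition) in wild type with saline and 7.44 to 23.1 CPM in the labelled knockout with saline, and it was 394 to 775 CPM in wild type with cerulein. In the labelled knockout with cerulein, Atf3 stood at 1375 CPM in C2, 1636 CPM in L4 and 20.7 CPM in C3. C3 also differed from C2 and L4 in the share of its counts in its 10 most abundant genes, 53.9%, against 44.6 to 46.8% in the other cerulein libraries and 53.0 to 57.6% in the saline libraries. C3 was kept as labelled in the 12-library fit, and results that involve its group are given with and without it. Every direction drawn from genotype below rests on the labels alone.

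In wild-type pancreas, cerulein was followed by a rise of 6 of the 7 genes by edgeR's quasi-likelihood test with Benjamini-Hochberg adjustment over 14329 genes (adjusted p under 0.05), and none fell. Of all genes tested, 17.9% rose and 12.8% fell. As counts these were 2568 and 1831 genes, and with plain library totals in place of TMM scaling 3195 rose and 881 fell. The median log2 fold change of the 7 members was 2.38, against 0.05 over all genes tested. The wild-type cerulein libraries lay above the wild-type saline libraries for all 7 members, and 27.5% of all genes did the same. In these bulk samples, a change in the number of cells of a type and a change in RNA per cell cannot be told apart.

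Zfp36 (ENSMUSG00000044786, chr7:28376784-28380253) stood at 58.1, 26.5 and 36.2 CPM in the wild-type saline libraries W1, K5 and R3, and at 254.5, 150.2 and 178 CPM in the wild-type cerulein libraries O1, O3 and N3. The lowest cerulein library was above the highest saline library. Zfp36 rose 4.83-fold, or by 2.27 ± 0.57 on the log2 scale (SE, 3 animals a group, edgeR adjusted p = 0.0158). This call was lost when K5, R3 or O1 was left out. Zfp36l2 (ENSMUSG00000045817, chr17:84183931-84187947) stood at 17.2, 16.3 and 21.5 CPM in W1, K5 and R3, and at 62.3, 83.6 and 52.8 CPM in O1, O3 and N3. Its saline libraries were close to each other and all below the cerulein libraries. Zfp36l2 rose 3.61-fold, a log2 fold change of 1.85 ± 0.46 (edgeR adjusted p = 0.0150). Its call was lost when W1, K5 or O3 was left out.

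Zfp36l1 (ENSMUSG00000021127, chr12:80107754-80113013) was the family member with the smallest difference. It stood at 40.3, 19.9 and 29.1 CPM in W1, K5 and R3, and at 57.7, 45.1 and 54.4 CPM in O1, O3 and N3. The groups did not overlap, but the highest saline and the lowest cerulein library lay close together. The log2 fold change was 0.82 ± 0.37 and did not pass the test (edgeR adjusted p = 0.116), whereas with C3 left out of the fit, which lowered the shared biological coefficient of variation from 0.357 to 0.304, the same 0.82 ± 0.27 passed (adjusted p = 0.0347). A difference between the responses of the 3 Zfp36 family genes was not tested.

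Ier5 (ENSMUSG00000056708, chr1:155096361-155099636) had the largest response of the 7. It stood at 5.37, 2.67 and 5.63 CPM in W1, K5 and R3, and at 114, 124 and 81.7 CPM in O1, O3 and N3. The lowest cerulein library was many times above the highest saline library. Ier5 rose 23.4-fold, a log2 fold change of 4.55 ± 0.95 (edgeR adjusted p = 0.00988). Ier2 (ENSMUSG00000053560, chr8:84661331-84662852) stood at 14.6, 5.91 and 8.94 CPM with saline and at 112, 97.2 and 72.4 CPM with cerulein in the same order of libraries. The saline level was uneven, with W1 the highest and K5 the lowest, yet far below every cerulein library. Ier2 rose 9.57-fold, a log2 fold change of 3.26 ± 0.71 (edgeR adjusted p = 0.0107).

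Ier3 (ENSMUSG00000003541, chr17:35821684-35822923) stood at 5.82, 3.39 and 6.89 CPM in W1, K5 and R3, and at 54.0, 42.6 and 43.8 CPM in O1, O3 and N3. The wild-type groups were well apart. Ier3 rose 8.70-fold, a log2 fold change of 3.12 ± 0.98 (edgeR adjusted p = 0.0340). Its SE was the largest of the 7, and the call did not hold by limma-voom (adjusted p = 0.0635). The call was also lost with any single wild-type library left out (edgeR adjusted p = 0.0540 without N3 to 0.112 without K5), although the wild-type libraries themselves did not overlap. With C3 left out of the fit, the same 3.12 ± 0.66 passed (edgeR adjusted p = 0.00478). The coefficient of variation of Ier3 CPM was 119% in the labelled knockout cerulein libraries and 13.4% in the wild-type cerulein libraries. The wild-type counts of Ier3 ran from 66 in K5 to 1467 in O1. Its lowest count, 31, was in the labelled knockout library Q1, where Ier5 had 31 as well.

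Btg1 (ENSMUSG00000036478, chr10:96617006-96622809) stood at 35.6, 27.8 and 34.7 CPM in W1, K5 and R3, and at 141, 229 and 139.6 CPM in O1, O3 and N3. O3 was above the other cerulein libraries, and all 3 were above every saline library. Btg1 rose 5.19-fold, a log2 fold change of 2.38 ± 0.39 (edgeR adjusted p = 0.00918), and its SE relative to its response was the smallest of the 7.

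**Figure D1:**
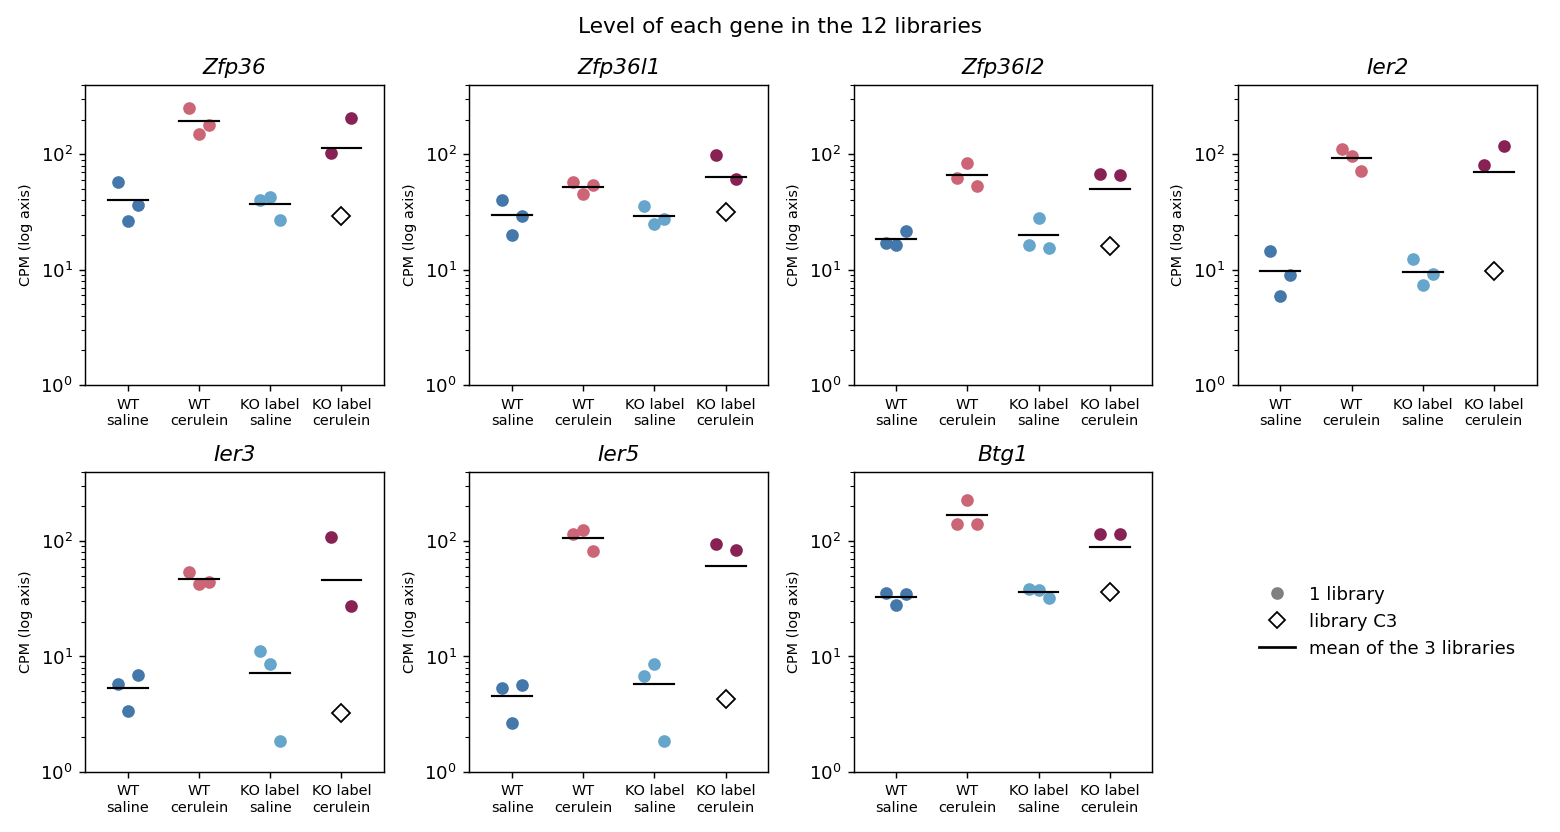
Level of each of the 7 genes in every library in CPM on a log axis, by group, with 1 point per library, C3 drawn as an open diamond and a bar at the mean of each group's 3 libraries. The wild-type cerulein libraries lie above the wild-type saline libraries in all 7 panels, and C3 lies among the saline libraries in all 7 panels.

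The order of the genes differed between treatments when levels were set per kilobase of exon. In wild type with saline the mean level ± SD was 11.6 ± 4.67 CPM per kilobase for Zfp36, 9.95 ± 3.41 for Zfp36l1, 6.45 ± 2.90 for Ier2, 6.20 ± 0.81 for Btg1, 5.2 ± 0.78 for Zfp36l2, 4.75 ± 1.59 for Ier3 and 1.39 ± 0.50 for Ier5 (n = 3). Neighbours in this order overlapped in their libraries except Ier3 and Ier5. In wild type with cerulein the order of levels was Ier2 at 61.6 ± 13.1 CPM per kilobase, Zfp36 at 56.0 ± 15.6, Ier3 at 41.4 ± 5.55, Ier5 at 32.6 ± 6.75, Btg1 at 32.2 ± 9.76, Zfp36l2 at 18.8 ± 4.47 and Zfp36l1 at 17.5 ± 2.19 (n = 3). The neighbours overlapped except Btg1 and Zfp36l2. Zfp36l1 was thus second of the 7 by mean with saline and last with cerulein, and Ier5 was last with saline. These levels use all exons of the gene model, so a gene with a long, little used exon is understated.

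Between the genotypes with saline, no member passed the test. The libraries overlapped for all 7, while 2.09% of all genes were higher and 2.74% lower without overlap. Mean Zfp36 was 36.8 ± 8.40 CPM (SD, n = 3) in the labelled knockout and 40.3 ± 16.2 CPM in wild type, Btg1 was 36.2 ± 3.34 against 32.7 ± 4.29 CPM, and Ier3 was 7.21 ± 4.80 against 5.37 ± 1.79 CPM. The log2 differences, labelled knockout minus wild type, ran from -0.13 ± 0.55 (SE) for Zfp36 to 0.43 ± 0.93 for Ier3. By edgeR 0 of 7 members and 0% of all genes passed, with 60 genes at an unadjusted p under 0.05 and 0 called by limma-voom or DESeq2. With C3 out of the fit 0% passed as well.

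In the labelled knockout, C2 and L4 showed high levels of all 7 members after cerulein and C3 did not. Zfp36 stood at 40.3, 42.9 and 27.2 CPM in the saline libraries S1, K4 and Q1, and at 103, 29.45 and 206 CPM in the cerulein libraries C2, C3 and L4. Zfp36l1 stood at 35.7, 24.9 and 27.3 CPM with saline and at 99.5, 31.9 and 60.6 CPM with cerulein in the same order. Zfp36l2 stood at 16.3, 28 and 15.5 CPM with saline and at 67.0, 16.1 and 66.4 CPM with cerulein. In each of the 3 family genes C3 lay inside the range of S1, K4 and Q1, and C2 and L4 lay above it. C2 was the higher of these libraries for Zfp36l1 and L4 for Zfp36.

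The Ier genes showed the gap between C3 and its group most widely. Ier2 stood at 12.3, 7.30 and 9.12 CPM in S1, K4 and Q1, and at 80.3, 9.66 and 119 CPM in C2, C3 and L4. Ier3 stood at 11.1, 8.69 and 1.85 CPM with saline and at 108, 3.24 and 27.4 CPM with cerulein. Ier5 stood at 6.78, 8.55 and 1.85 CPM with saline and at 94.1, 4.27 and 83.4 CPM with cerulein. For Ier3 and Ier5 the mean of C2 and L4 was 20.9 and 20.8 times the level in C3, and for Ier2 10.3 times. C2 and L4 were also unlike each other in Ier3, with C2 the highest of all 12 libraries.

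Btg1 stood at 38.4, 37.8 and 32.4 CPM in S1, K4 and Q1, and at 115, 36.2 and 115.5 CPM in C2, C3 and L4. C2 and L4 had nearly the same level, and C3 lay between the saline libraries Q1 and K4. Over the 7 members C3 was at 0.449 times (Ier3) to 1.09 times (Zfp36l1) the mean of the labelled knockout saline libraries. None of the 7 was outside the saline range of its genotype in C3, whereas 23.4% of all genes tested were above that range and 23.1% below it.

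With all 12 libraries the cerulein response of the labelled knockout passed the test for 0 of 7 members and for 0% of all genes by edgeR. The log2 fold changes were 1.13 ± 0.37 (SE) for Zfp36l1 to 3.39 ± 0.90 for Ier5, with adjusted p of 0.0860 for Ier2 to 0.140 for Ier3. At an unadjusted p under 0.05 all 7 members and 3256 genes were counted, 1359 genes were called by DESeq2, all 7 members among them (adjusted p from 0.000591 for Ier2 to 0.0411 for Zfp36l2), and 0 by limma-voom. The cerulein and saline libraries overlapped for all 7 members, since C3 lay among the latter, and 9.41% of all genes were higher without overlap.

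With C3 left out, all 7 members rose in the labelled knockout, where 18.7% of 14733 genes tested rose and 10.5% fell. Ier5 rose 15.4-fold, a log2 fold change of 3.94 ± 0.52 (SE, n = 2 cerulein and 3 saline libraries, edgeR adjusted p = 0.000441). Ier2 rose 10.4-fold (3.38 ± 0.37, edgeR adjusted p = 0.000124) and Ier3 9.27-fold (3.21 ± 0.69, adjusted p = 0.00710). The increases were smaller for Zfp36 at 4.19-fold (adjusted p = 0.00288), Zfp36l2 at 3.34-fold (adjusted p = 0.000829), Btg1 at 3.18-fold (adjusted p = 0.000370) and Zfp36l1 at 2.74-fold (adjusted p = 0.00430). C2 and L4 were above all 3 saline libraries for all 7 members, and 29.3% of all genes were higher in the same way. In the same fit all 7 members rose in wild type, where 21.3% of all genes rose and 16.6% fell.

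**Figure D2:**
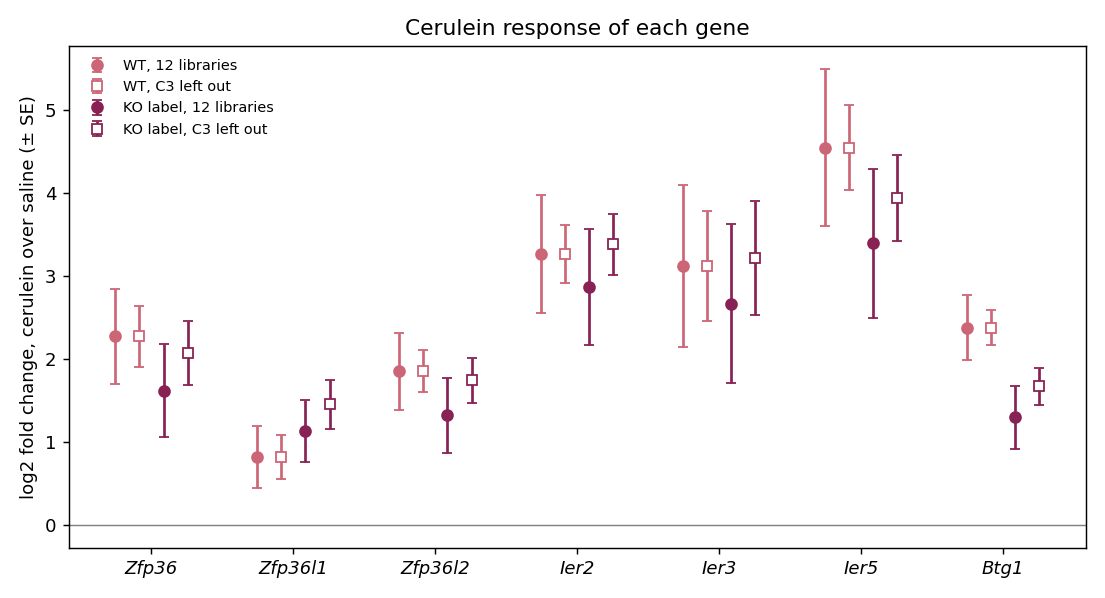
Log2 fold change with its SE of cerulein over saline for each of the 7 genes, in wild type and in the labelled knockout (KO label), with filled circles for the 12-library fit and open squares for the fit without C3. All values lie above 0, from 0.82 for Zfp36l1 to 4.55 for Ier5 in wild type, and the labelled knockout values are higher without C3 for every gene.

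The genotypes were then compared under cerulein. With all 12 libraries 0 of 7 members and 0% of all genes passed by edgeR (1146 genes at an unadjusted p under 0.05, 11 called by DESeq2 and 0 by limma-voom), and without C3 0% passed as well, with 747 genes at an unadjusted p under 0.05. Log2 differences, labelled knockout minus wild type, ran from -0.94 ± 0.38 for Btg1 to 0.29 ± 0.37 for Zfp36l1 with C3 and from -0.56 ± 0.23 for Btg1 to 0.61 ± 0.29 for Zfp36l1 without it. Leaving out C3 turned the sign for Zfp36l2 (-0.41 ± 0.45 to 0.01 ± 0.27), Ier2 (-0.43 ± 0.65 to 0.09 ± 0.35) and Ier3 (-0.02 ± 0.89 to 0.53 ± 0.66), each within 1 SE of 0. Zfp36 stood at -0.79 ± 0.55 with C3 and -0.33 ± 0.39 without it, and Ier5 at -0.81 ± 0.82 and -0.26 ± 0.49.

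Btg1 was the member with the most distinct levels between the genotypes after cerulein, but its difference did not pass the test. Its libraries C2, C3 and L4 all lay below O1, O3 and N3, as did those of 4.29% of all genes, and 5.47% were higher without overlap. The unadjusted p was 0.0301 with C3 and 0.0332 without it, and the edgeR adjusted p was 0.604 and 0.974. Zfp36l1 lay the other way once C3 was left out, with C2 and L4 above O1, O3 and N3 (unadjusted p = 0.0625, edgeR adjusted p = 0.978). Without C3, 9.51% of all genes were higher and 6.53% lower in this way, so 1 member in each direction out of 7 is near the background.

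The difference between the cerulein responses of the genotypes, tested as an interaction, did not pass for any member. By edgeR 0% of all genes passed with C3 and 0% without it (594 and 508 genes at an unadjusted p under 0.05), and with all 12 libraries DESeq2 called 1 and limma-voom 0. For Btg1 the response of the labelled knockout minus that of wild type was -1.08 ± 0.53 (log2, edgeR adjusted p = 0.812) with C3 and -0.71 ± 0.31 (unadjusted p = 0.0424, adjusted p = 0.999) without it. For Zfp36l1 it was 0.31 ± 0.52 with C3 and 0.64 ± 0.40 without it. The other 5 members without C3 ran from -0.61 ± 0.68 for Ier5 to 0.12 ± 0.49 for Ier2. These values do not show that the responses were alike, since the SE without C3 was as large as 0.92 for Ier3.

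Within the saline libraries the members did not all vary together. Over the 6 saline libraries of both genotypes, the 21 pairs of members had a Pearson r of log2 CPM from -0.300 to 0.992 with a median of 0.659. The r was 0.992 for Zfp36l1 with Ier2 and 0.962 for Ier3 with Ier5, and Ier3 and Ier5 shared their lowest level, 1.85 CPM, in Q1. These values describe 6 points that share library depth and sampling of the tissue. Over the 5 cerulein libraries other than C3, too few for more than a description, 10 of the 21 pairs had a negative r and the median was 0.009, with -0.273 for Zfp36l1 with Ier2 and 0.172 for Ier3 with Ier5. Over all 12 libraries these 5 libraries lay above the 6 saline libraries and C3 for every member. The gap was narrow for Zfp36l1, from 40.3 CPM in W1 to 45.1 CPM in O3. For the other members, the r of other genes with a member measures mainly the gap. On that measure, among 5387 genes of at least 10 CPM mean, the genes most like Zfp36 were Jun (r = 0.981) and Gem (0.975), and those most like Ier5 were Fosl1 (0.992), an AP-1 subunit, and Nap1l1 (0.992). Those most like Btg1 were Sdc1 (0.993) and Nop56 (0.993), most like Zfp36l2 Svil (0.993) and Capn2 (0.991), and most like Ier2 Cldnd1 (0.991) and Nudt22 (0.991). Those most like Ier3 were Map3k11 (0.980) and Ezr (0.980), and Zfp36l1 had the lowest values, with Tagln2 (0.951) and Picalm (0.948). Sizes of change differed among these genes, since mean Gem was 0.709 CPM in wild type with saline and 54.7 CPM with cerulein, whereas Map3k11 was 18.1 and 25.5 CPM.

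The deadenylation machinery that the Zfp36 proteins and Btg1 recruit held genes that rose and genes that fell in wild type. Of 11 CCR4-NOT genes, 2 rose, 2 fell and 7 did not pass in the 12-library fit, with a median log2 fold change of -0.21, against 0.05 over all genes tested. These counts are near the background, since 17.9% of all genes rose and 12.8% fell, shares that apply to each list in wild type below. Cnot8, a deadenylase subunit, fell by 1.13 ± 0.22 on the log2 scale (edgeR adjusted p = 0.00918), and Cnot4, a ubiquitin ligase of the complex, rose by 1.04 ± 0.18 (adjusted p = 0.00918). Without C3, Cnot8 fell in the labelled knockout as well, by 0.82 ± 0.15 (adjusted p = 0.00215), and Cnot4 rose by 0.81 ± 0.13 (adjusted p = 0.00108). In wild type without C3, 2 of the 11 CCR4-NOT genes rose and 4 fell, where 21.3% of all genes rose and 16.6% fell. Of 6 other deadenylation and poly(A) genes 1 rose and 2 fell in the 12-library fit, which is few genes to set against the shares of all genes. Pabpc1, the poly(A) binding protein, rose by 0.67 ± 0.18 (adjusted p = 0.0176) and Pan2 fell by 0.63 ± 0.16 (adjusted p = 0.0171).

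Btg1 has relatives with the same deadenylase-binding domain. Of 4 BTG and TOB genes, 2 rose and 1 fell in wild type (17.9% and 12.8% of all genes). Btg3 rose by 2.57 ± 0.45 (log2, edgeR adjusted p = 0.00918) and Btg2 by 1.94 ± 0.56 (adjusted p = 0.0256), from a mean of 166 to 637 CPM. Tob1 fell by 2.04 ± 0.55 (adjusted p = 0.0202), from 124 to 30.1 CPM. Without C3, Tob1 fell by 2.09 ± 0.27 in the labelled knockout as well (adjusted p = 0.000280). Of the 4 genes listed as partners of Btg1, namely Prmt1, Hoxb9, Cnot7 and Cnot8, 0 rose and 1, Cnot8, fell.

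Decapping and exosome genes act after the poly(A) tail is removed. Of 10 decapping and 5′ decay genes 4 rose and 0 fell in wild type, where 17.9% of all genes rose and 12.8% fell. Those that rose included Patl1, a decapping activator, by 1.17 ± 0.23 (log2, edgeR adjusted p = 0.00921), Eif4enif1 by 1.02 ± 0.23 (adjusted p = 0.0118) and Edc3 by 0.96 ± 0.23 (adjusted p = 0.0130). The log2 fold change was -0.13 ± 0.18 for the exonuclease Xrn1 (adjusted p = 0.602). Of 10 exosome genes 2 rose, near the 17.9% of all genes, and 0 fell. They were the catalytic subunits Dis3 by 1.24 ± 0.25 (adjusted p = 0.00925) and Exosc10 by 0.62 ± 0.20 (adjusted p = 0.0406). The median log2 fold change was 0.36 for the decapping list and 0.24 for the exosome list.

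Of 12 other 3′ UTR binding regulators 7 rose and 2 fell in wild type (17.9% and 12.8% of all genes), with a median log2 fold change of 0.79. Zc3h12c and Zc3h12a (regnase-1), endonucleases of inflammatory mRNAs, rose by 1.91 ± 0.45 (edgeR adjusted p = 0.0129) and 1.86 ± 0.55 (adjusted p = 0.0278). Elavl1 (HuR), which stabilises AU-rich mRNAs, rose by 0.78 ± 0.20 (adjusted p = 0.0162). Tia1, a translational repressor, fell by 1.28 ± 0.22 (adjusted p = 0.00918) and Hnrnpd (AUF1), another AU-rich element binder, fell by 0.62 ± 0.19 (adjusted p = 0.0298).

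The p38 kinase pathway acts on Zfp36 by phosphorylation through MK2. Of 7 genes of p38 and MK2 signalling, 6 passed the filter on low counts, 4 rose and 0 fell in wild type (17.9% and 12.8% of all genes). Map2k3, which activates p38, rose by 4.49 ± 0.80 (log2, edgeR adjusted p = 0.00918), from a mean of 13.7 to 309 CPM. Mapk11, a p38 isoform, rose by 1.83 ± 0.45 (adjusted p = 0.0140), and Mapkapk2 (MK2) by 1.30 ± 0.28 (adjusted p = 0.0101). Mapk14, the main p38 isoform, was at 0.03 ± 0.13 (adjusted p = 0.863). These are mRNA levels and do not measure phosphorylation.

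Of 20 mRNAs known as targets of Zfp36 in other systems, 18 passed the filter, 8 rose, 0 fell and 10 did not pass in wild type (17.9% of all genes rose and 12.8% fell). The median log2 fold change was 1.95. This list, like the other lists, was chosen with earlier results of these data known. Its counts beside the shares of all genes are therefore a description and not a test. Lif rose by 9.74 ± 1.67 (edgeR adjusted p = 0.00918), Fos by 5.47 ± 1.21 (adjusted p = 0.0110), Dusp1 by 4.90 ± 0.98 (adjusted p = 0.00925) and Cdkn1a by 4.23 ± 0.89 (adjusted p = 0.0101). The other 4 that rose were Ptgs2, Ccl2, Plk3 and Vegfa. Tnf, the best known target, was at 1.55 ± 0.88 (adjusted p = 0.204), Il6 at 2.61 ± 1 (adjusted p = 0.0684) and Myc at 1.2 ± 0.43 (adjusted p = 0.0557). Whether these mRNAs are bound by Zfp36 in the pancreas was not measured.

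The last list held genes tied to the Ier members. Of 8 listed relatives and partners, 5 rose and 0 fell in wild type (17.9% and 12.8% of all genes), with a median log2 fold change of 1.22. Hsf1, the heat shock factor on which Ier5 acts, rose by 0.71 ± 0.19 (edgeR adjusted p = 0.0208), and its target Dnajb1 by 1.83 ± 0.30 (adjusted p = 0.00918). Hspa1a rose by 6.28 ± 1.07 and Hspa1b by 4.78 ± 0.80 (adjusted p = 0.00918 for each), but these genes are near-identical copies whose reads may be split between them, so their separate values are uncertain. Mcl1, a survival factor that Ier3 is reported to bind, rose by 1.38 ± 0.24 (adjusted p = 0.00918). The closest relative of Ier5 on the list, Ier5l, was at 1.06 ± 0.58 (adjusted p = 0.185).

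**Figure D3:**
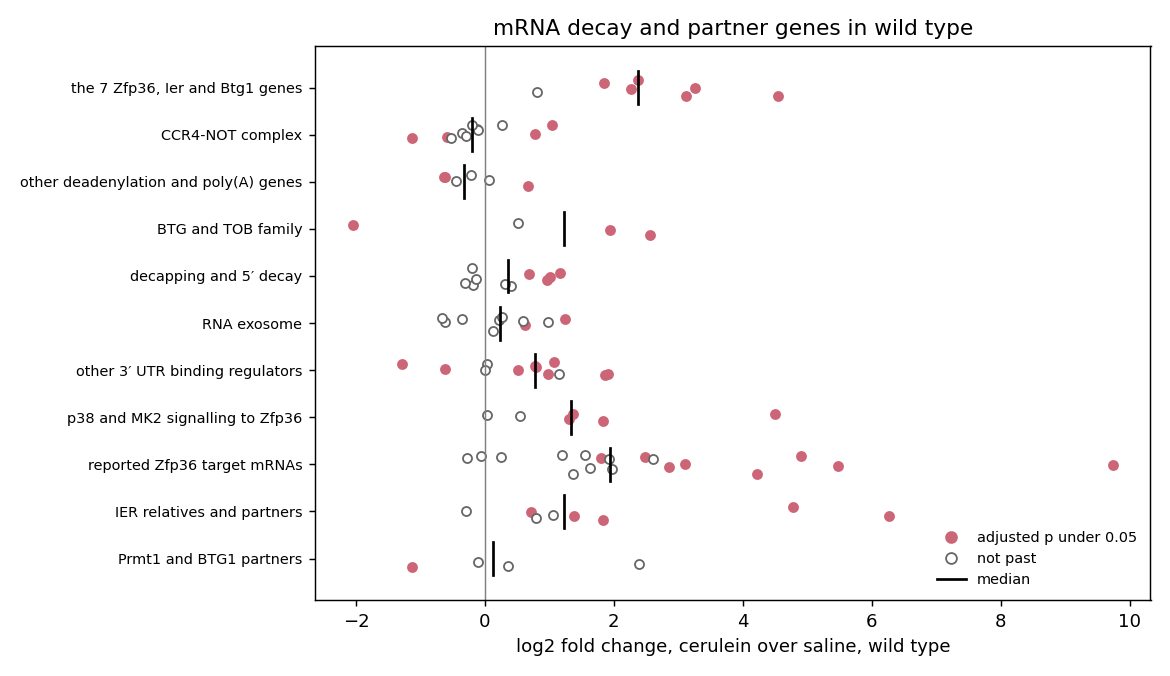
Log2 fold change of cerulein against saline in wild type (12-library fit) for the 7 members (top row) and every tested gene of the 10 pathway lists, with 1 point per gene, filled where edgeR's adjusted p was under 0.05, and a bar at the median. The members' median is 2.38, that of the Zfp36 target list 1.95, and those of the CCR4-NOT and other deadenylation lists are -0.21 and -0.33.

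In the labelled knockout 0 genes of any of the 10 lists passed with all 12 libraries. Without C3, 18.7% of all genes rose and 10.5% fell. In that fit the p38 and MK2 list had 4 that rose and 0 that fell, the Zfp36 target list 8 and 1, and the Ier list 6 and 0. The other 3′ UTR binders had 4 and 1, the BTG and TOB list 2 and 1, the decapping list 3 and 0 and the exosome list 4 and 1. The CCR4-NOT, other deadenylation and Btg1 partner lists had 1 and 1 each, of 11, 6 and 4 genes. For CCR4-NOT these counts are near the shares of all genes. In wild type the fit without C3 gave 2 and 4 for CCR4-NOT, 4 and 2 for the exosome and 9 and 0 for the Zfp36 targets. It gave 6 and 0 for the Ier list, 1 and 1 for the Btg1 partners and 7 and 2 for the other 3′ UTR binders. There 21.3% of all genes rose and 16.6% fell, and the remaining lists kept their 12-library counts. Map2k3 rose by 4.16 ± 0.24, Lif by 8.55 ± 0.42 and Fos by 4.63 ± 0.63 (log2) in the labelled knockout in the fit without C3. No gene of the lists passed in any comparison of genotypes.

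The tissue was pancreas by its markers. The summed level of 8 acinar genes was 376080 to 444900 CPM in wild type with saline and 248440 to 323860 CPM in wild type with cerulein, and C3, at 420380 CPM, was the highest of the labelled knockout cerulein libraries, whose lowest was 257750 CPM. The 6 duct markers summed to 163 to 223 CPM in wild type with saline and 224 to 330 CPM with cerulein. Leucocyte markers, 11 genes, were at 51.5 to 74.3 CPM in wild type with saline and 52.0 to 274 CPM with cerulein, where N3 was the highest, and at 28.6 to 216 CPM in the labelled knockout with saline and 24.9 (C3) to 90.2 CPM with cerulein. The 5 endothelial markers were at 70.2 to 75.7 and 53.0 to 72.5 CPM, and the 6 fibroblast markers at 248 to 346 and 138 to 372 CPM, in wild type with saline and cerulein. The 5 adipocyte markers were uneven within groups, at 326 CPM in N3 against 29.4 in O3 and 29.98 in O1, and at 415 CPM in K4 against 34.3 in Q1 and 59.8 in S1. They were at 62.6 to 123 CPM in wild type with saline and 30.2 to 54.7 CPM in the labelled knockout with cerulein. Islet markers, 6 genes, ran from 458 to 11454 CPM in the labelled knockout with cerulein, and no marker was at 0 in a whole group. The part of these markers in the levels of the 7 genes was not tested. Without N3 the wild-type rise held for Zfp36, Zfp36l2, Ier2, Ier5 and Btg1. It did not hold for Ier3, whose call was lost with any single wild-type library left out.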

How the data were processed

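Per the labels' protocols, total RNA of whole pancreas was made into libraries with an Illumina TruSeq stranded total RNA kit. The authors deposited whole-number read counts per Ensembl gene, with no normalization, 1 table per library. HTSeq, DESeq2 and mm10 are named in the submitters' processing notes. The aligner, annotation release and strand setting are not stated in the sources used here. Symbols and coordinates came from GENCODE M21 on GRCm38 (49326 of 49585 identifiers matched). Zfp36 and Zfp36l1 overlap opposite-strand genes (Gm44710 and Gm26669) with mean counts of 3.2 and 1.2, and Zfp36l2 overlaps AC132455.1, not analysed here.

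Genes kept by filterByExpr (14329, or 14733 without C3) were scaled by TMM and fitted with edgeR 4.0.16 (R 4.3.3) as 1 robust quasi-likelihood model of 4 group means over 12 libraries. Contrasts were tested two-sided at a threshold of 0.05 after Benjamini-Hochberg adjustment over all genes tested. The SE is the log2 fold change over the square root of F. Levels, marker sums included, are CPM on TMM-scaled library sizes. Libraries held 18292997 to 32158629 counts, and the lowest member counts were 31 each for Ier3 and Ier5 in Q1. Correlations used log2 CPM with a prior count of 2. Alternatives were limma-voom (limma 3.58.1), DESeq2 1.42.0, other scalings and filters, only the compared groups in the fit, and each library left out in turn. The fit was also run on simulated counts of fixed spread with no library set apart as C3 is, so that run does not bear on C3. Tables were made with pandas 2.3.3 and NumPy 2.4.6 and figures with matplotlib 3.10.9, in Python 3.11.15.

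The members and the 10 gene lists were chosen with earlier results of these data known. Named in the text are the 7 members, Atf3, from each list at most the 2 genes with the largest change past the threshold in wild type (where none passed, the 2 most abundant), and for each member the 2 most alike named genes. Btg2, Edc3, Xrn1, Elavl1, Tia1, Hnrnpd, Mapkapk2, Mapk14, Dusp1, Cdkn1a, Ptgs2, Ccl2, Plk3, Vegfa, Tnf, Il6, Myc, Hsf1, Dnajb1, Mcl1 and Ier5l were chosen after their values were seen or as the best known of their list.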

Additional observations from a re-analysis of the deposited data

How the results depend on the processing

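In wild type, 4399 genes passed with all 12 libraries, and leaving out 1 library at a time gave 1841 to 5583. The 2568 that rose and 1831 that fell became 3195 and 881 with plain library totals, which moved the median log2 fold change of all genes from 0.05 to 0.34. The direction of all 7 responses was the same under every alternative run in both genotypes. In the labelled knockout, 0 genes passed, against 1359 by DESeq2 and 0 to 4306 with 1 library left out, 4306 being the value without C3. DESeq2 called 11 genes between the genotypes under cerulein and 1 in the difference of responses.

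Wild-type calls were lost for Zfp36 without K5 (edgeR adjusted p = 0.0625), R3 (0.0594) or O1 (0.0507), for Zfp36l2 without W1 (0.0518), K5 (0.0568) or O3 (0.0562), and for Ier3 by limma-voom (0.0635), without a filter on low counts (0.101) and without each wild-type library. Zfp36l1 passed with only the compared groups in the fit (0.0303) and without C3 (0.0347). No paired analysis was possible because the groups share no replicate code.

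Signs turned only in comparisons of genotypes, where no value passed. In saline, limma-voom gave 0.0192 for Zfp36l1 and 0.0577 for Ier2, and leaving out 1 library gave log2 differences of -0.36 to 0.23 for Zfp36, -0.24 to 0.26 for Zfp36l1, -0.21 to 0.27 for Zfp36l2, -0.30 to 0.36 for Ier2, -0.0181 to 0.88 for Ier3 and -0.0703 to 0.75 for Ier5. Under cerulein it gave -0.18 to 0.61 for Zfp36l1, -0.68 to 0.0108 for Zfp36l2, -1.06 to 0.0894 for Ier2 and -1.60 to 0.53 for Ier3. For the difference of responses it gave -0.16 to 0.64 for Zfp36l1, -1.02 to 0.12 for Ier2 and -2.04 to 0.0925 for Ier3. The cause was not tested.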
